A study of Mus musculus with 10 samples.

Results

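The cytokine genes Il1a, Il1b, Il33, Il1f6 (Il36a), Il1f8 (Il36b) and Il1f9 (Il36g), the antagonist gene Il1rn and the receptor genes Il1r1, Il1r2 and Il1rl1 were chosen by name as the IL-1 and IL-36 family, 10 of the 45706 genes counted, and all 10 passed the filter on low counts. RNA was sequenced from whole uteri of adult female mice at gestation day (GD) 3.5, dated from the vaginal plug and before implantation. The 5 control mice were Arid1a f/f, with both Arid1a alleles floxed and no Cre, and the 5 Ltf iCre/+ Arid1a f/f mice carried the same floxed alleles and 1 iCre allele at the lactoferrin locus, on a mixed background of the strains 129S1/SvImJ, 129S6/SvEvTac, 129P2/OlaHsd and C57BL/6. This Cre is driven by Ltf, which in the uterus is active in the epithelium of the adult, and the study's text says that it can also be expressed in neutrophils and other myeloid cells. ARID1A is a subunit of the SWI/SNF chromatin remodelling complex, and the comparison asks how the uterine transcriptome differs when the gene is deleted there. In what follows the second group is called the Ltf iCre/+ uteri, and values of 5 uteri are given in the order of replicates 1 to 5.

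IL-1 alpha and IL-1 beta bind IL1R1 and drive inflammation through MyD88 and NF-kB. IL1RN (the IL-1 receptor antagonist) occupies the same receptor without signalling, and IL1R2 is a decoy that binds IL-1 but carries no signalling domain. The IL-36 cytokines act in the same way through their own receptor, IL1RL2, and are made mainly by epithelia, while IL-33 is a nuclear cytokine of epithelial and stromal cells that is released on damage and acts on mast cells, group 2 innate lymphoid cells and regulatory T cells through ST2, the product of Il1rl1. In the uterus the family has been studied for its part in implantation and in the handling of infection.

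The libraries held 59296537 to 72702411 counted reads. The unit of expression below is CPM, a gene's reads over the library size after TMM scaling, and 3 counts were worth about 0.0433 CPM in a control library. Arid1a itself stood at 213 ± 22.9 CPM (SD, n = 5) in the controls and at 185 ± 15.9 CPM in the Ltf iCre/+ uteri, a difference that did not pass the test (adjusted p = 0.201), in tissue that also holds many cells outside the epithelium. Ltf, the driver locus, stood at 2.22 to 11.7 CPM in the controls and at 383, 23.6, 39.8, 289.7 and 2831 CPM in the Ltf iCre/+ uteri. For the labelled tissue, the epithelial marker Cdh1 was present in every library at 204 to 595 CPM. Whole uterus was sequenced, so more cells of a type and more RNA per cell cannot be told apart, and p-values measure the spread between these uteri.

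Of the 10 genes, Il1f8, Il1f6, Il1a and Il1r1 were higher in the Ltf iCre/+ uteri at an adjusted p under 0.05 and none was lower, by the quasi-likelihood test of edgeR, adjusted by Benjamini and Hochberg's method over the 25146 genes tested. The background was 5.19% of those genes called higher and 4.51% called lower, or 9.7% in either direction. The median log2 fold change of the 10 genes was 3.95, beside 0.03 over all tested genes. Without Ltf iCre/+ replicate 5 their values ran from -0.99 for Il1r2 to 5.44 for Il1f6. Il33 at 0.73 and Il1f9 at 0.76 were then in the middle, beside a median of 0.02 over all tested genes. Ltf iCre/+ replicate 5 held the highest level of the 10 uteri for 9 of the 10 genes, where 15.2% of all tested genes had their highest level in that uterus, and it stood above every control for all 10 (29% of tested genes). Each of the 10 genes is therefore also given without that uterus, in a fit of 5 against 4. With robust fitting 2 of the 10, Il1f8 and Il1r1, stayed past the threshold, where 5.07% of genes were called higher. DESeq2 called Il1f8, Il1f6 and Il1r1 higher, where it called 9.88% of genes higher, and gave no adjusted p for 5 of the 10.

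**Figure D1:**
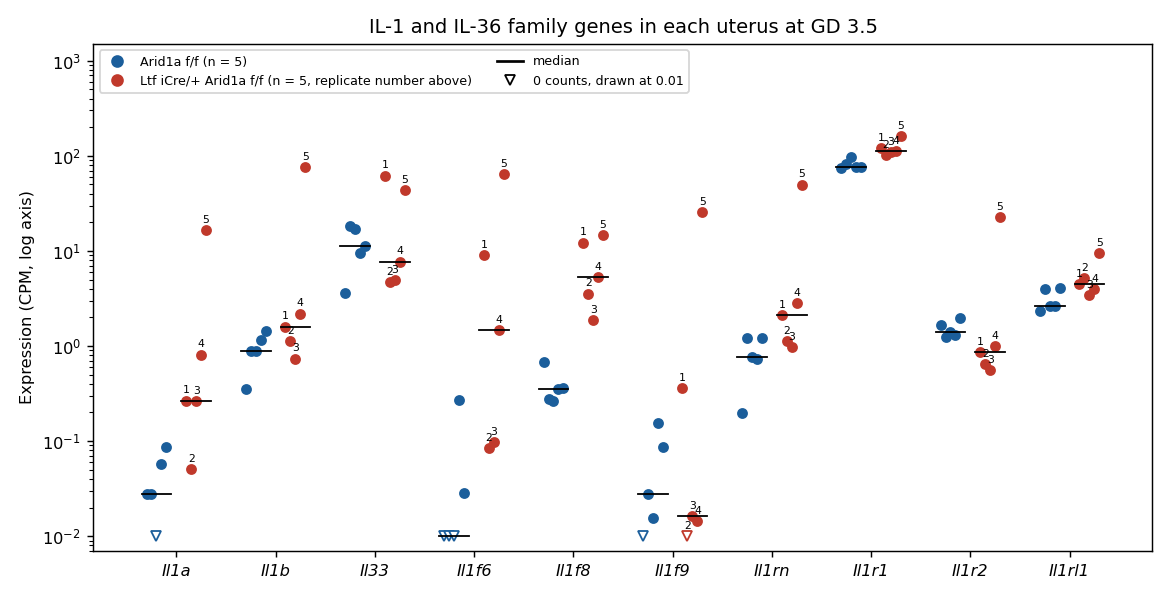
Expression in CPM (log axis) of the 10 genes in each uterus, controls in blue and Ltf iCre/+ Arid1a f/f in red with the replicate number above each point. Black lines are group medians and open triangles are uteri with 0 counts, drawn at 0.01. Il1f8 and Il1r1 separate the genotypes completely, and replicate 5 is the top point for every gene but Il33.

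Il1f8 encodes IL-36 beta. The 250 bases before its RefSeq start site, at chr2:24152922-24153171 on the plus strand of GRCm38.p6, are shown because this was the gene with the smallest adjusted p of the 10, and those of Il1a (chr2:129309973-129310222, minus strand) and Il1b (chr2:129371140-129371389, minus strand) because the pair lies side by side and differed in the call. All 3 are written 5′ to 3′ up to the start site, and capitals mark TGANTCA, the core letters bound by AP-1 factors, and TATAAA, the TATA box letters.

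Il1f8: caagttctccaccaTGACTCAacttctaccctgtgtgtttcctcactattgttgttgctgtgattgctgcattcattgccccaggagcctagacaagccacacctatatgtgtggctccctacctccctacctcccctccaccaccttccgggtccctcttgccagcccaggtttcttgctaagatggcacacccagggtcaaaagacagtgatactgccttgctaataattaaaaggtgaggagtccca
Il1a: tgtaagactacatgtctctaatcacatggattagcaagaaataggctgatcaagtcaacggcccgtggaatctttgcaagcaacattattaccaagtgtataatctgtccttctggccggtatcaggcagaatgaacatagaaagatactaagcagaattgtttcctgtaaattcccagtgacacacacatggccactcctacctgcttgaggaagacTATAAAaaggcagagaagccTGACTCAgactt
Il1b: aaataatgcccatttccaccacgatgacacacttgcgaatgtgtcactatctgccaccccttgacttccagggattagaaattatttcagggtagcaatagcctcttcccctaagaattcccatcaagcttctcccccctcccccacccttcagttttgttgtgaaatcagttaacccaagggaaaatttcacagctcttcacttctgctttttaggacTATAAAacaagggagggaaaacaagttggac

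TGANTCA, read on both strands, starts 236 bases before the start site of Il1f8 and 12 bases before that of Il1a, and TATAAA starts 32 bases before the start of Il1a and 31 bases before that of Il1b. TGANTCA was found in 6.75% and TATAAA in 12.4% of the 32851 RefSeq promoters searched over the same length. Among the 14 promoter entries that matched 9 of the 10 genes, Il1a, Il1f8 and Il1rn held TGANTCA, Il1a, Il1b and Il33 held TATAAA, and Il1r1 alone held the longer NF-kB consensus, which 7.25% of all promoters held. Il1f6, which was called, was the gene without an entry. Of the genes with an entry, Il1a and Il1f8, with TGANTCA, and Il1r1, with the NF-kB consensus, were called. Il1b and Il33, with TATAAA, and Il1rn, with TGANTCA, did not pass the test. Whether these letters bear on the calls was not tested.

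Of the IL-36 ligands, Il1f8 and Il1f6 were called and Il1f9 was not. Il1f8 (ENSMUSG00000026985, chr2:24153161-24160519, plus strand) stood at 0.685, 0.279, 0.266, 0.355 and 0.359 CPM in the controls and at 12.2, 3.55, 1.86, 5.32 and 14.7 CPM in the Ltf iCre/+ uteri. The groups did not overlap, and the lowest Ltf iCre/+ uterus was above the highest control. The means were 0.389 ± 0.171 and 7.53 ± 5.61 CPM (SD, 5 uteri each), which is 4.27 on the log2 scale (SE 0.58, adjusted p = 0.00202), or 19.2-fold. Without replicate 5 it was 3.88 (SE 0.52, adjusted p = 0.00211), and the call held whichever single uterus was left out, with log2 fold changes from 3.88 to 4.57. The exact permutation test of the log2 CPM gave p = 0.00794, two-sided and unadjusted, the smallest that 5 against 5 allows.

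Il1f6 encodes IL-36 alpha (ENSMUSG00000026984, chr2:24215418-24225702, plus strand). It had no read in 3 controls and stood at 0.27 and 0.0287 CPM in control replicates 4 and 5, the first of these being 19 reads. In the Ltf iCre/+ uteri it stood at 9.08, 0.0845, 0.0981, 1.47 and 64.6 CPM, so that replicates 1, 4 and 5 lay above every control, while replicates 2 and 3, with 5 and 6 reads, lay below control replicate 4. The log2 fold change was 7.92 (SE 1.99, adjusted p = 0.0301), and 5.44 without replicate 5 (SE 1.51, adjusted p = 0.0472). The call was lost when control replicate 1, 2, 3 or 5 was left out (adjusted p from 0.0647 to 0.0789), and the exact permutation test gave p = 0.0317. The group means were 0.0597 ± 0.118 and 15.1 ± 27.9 CPM, so the SD of the Ltf iCre/+ uteri exceeded the difference between the means.

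Il1f9 encodes IL-36 gamma (ENSMUSG00000044103, chr2:24186476-24193568, plus strand). Its control levels were 0, 0.0279, 0.0157, 0.156 and 0.0861 CPM and its Ltf iCre/+ levels were 0.361, 0, 0.0163, 0.0145 and 25.8 CPM. The 25.8 CPM of replicate 5 were 1785 reads, and no other uterus had more than 23. The gene did not pass the test (log2 fold change 6.47, SE 2.13, adjusted p = 0.0782), and without replicate 5 the value was 0.76 (SE 1.21, adjusted p = 0.750).

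Il1a, the IL-1 alpha gene (ENSMUSG00000027399, chr2:129299610-129309972, minus strand), was near the floor in every control, at 0.0280, 0.0279, 0, 0.0568 and 0.0861 CPM, or at most 6 reads. The Ltf iCre/+ uteri gave 0.267, 0.0507, 0.262, 0.813 and 16.6 CPM, and all but replicate 2 were above every control. The log2 fold change was 6.43 (SE 1.62, adjusted p = 0.0307) and 3.07 without replicate 5 (SE 0.80, adjusted p = 0.0377), so the call did not rest on that uterus but its size did. It did rest on the number of controls: leaving out any 1 control ended it (adjusted p from 0.0611 to 0.0805). The exact permutation test gave p = 0.0238.

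Il1b, the IL-1 beta gene, which spans 71.5 kb together with Il1a (ENSMUSG00000027398, chr2:129364570-129371139, minus strand), stood at 0.35, 0.892, 0.893, 1.16 and 1.42 CPM in the controls. Its Ltf iCre/+ levels were 1.6, 1.12, 0.736, 2.19 and 76.0 CPM. Replicates 2 and 3 lay inside the control range, replicates 1 and 4 just above it, and replicate 5 far above it. The difference did not pass the test (log2 fold change 4.11, SE 1.31, adjusted p = 0.0702), it passed when Ltf iCre/+ replicate 3 was left out (adjusted p = 0.0480), and without replicate 5 it was 0.58 (SE 0.41, adjusted p = 0.410).

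Il33 had the highest control level of the 6 ligands (ENSMUSG00000024810, chr19:29925114-29960718, plus strand), at 3.59, 18.2, 17.1, 9.54 and 11.4 CPM. In the Ltf iCre/+ uteri it stood at 62.03, 4.68, 4.89, 7.71 and 43.2 CPM. Replicates 1 and 5 were above every control and the other 3 lay within the control range. The group medians were 11.4 and 7.71 CPM although the group means were 11.97 ± 5.96 and 24.5 ± 26.5 CPM, and the log2 fold change of 1.03 did not pass the test (SE 0.73, adjusted p = 0.419). Without replicate 5 it was 0.73 (SE 0.75), again not past the threshold, and without replicate 1 it was 0.34.

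On the scale of CPM per kb of exon, which allows levels of different genes to be compared, Il33 ranked first of the 6 ligands in all 5 controls and made up 62.1% to 89.7% of their summed level. Il18, a ligand of the wider family that is described below, had a control mean of 4.69 CPM per kb, beside 4.15 for Il33. In the Ltf iCre/+ uteri the share of Il33 in the sum of the 6 ligands was 49.9%, 30.9%, 43.8%, 26.0% and 9.13%, below every control. Il1f8 ranked first in replicates 2 and 4, Il33 in replicates 1 and 3, and Il1f6 in replicate 5, followed there by Il1b and Il1f9. The summed ligand level was 2.01 to 7.04 CPM per kb in the controls and 43.03, 5.24, 3.86, 10.3 and 164 CPM per kb in the Ltf iCre/+ uteri, so in replicates 2 and 3 the shares differed from the controls while the sum lay inside the control range. Among the controls the range of Il33, 1.25 to 6.31 CPM per kb, lay above that of Il1b, 0.183 to 0.745. The ranges of Il1b and Il1f8 (0.219 to 0.563) overlapped, as did those of Il1f6 (0 to 0.306), Il1f9 (0 to 0.0948) and Il1a (0 to 0.0436), so these neighbours in the order did not differ beyond their spread.

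**Figure D2:**
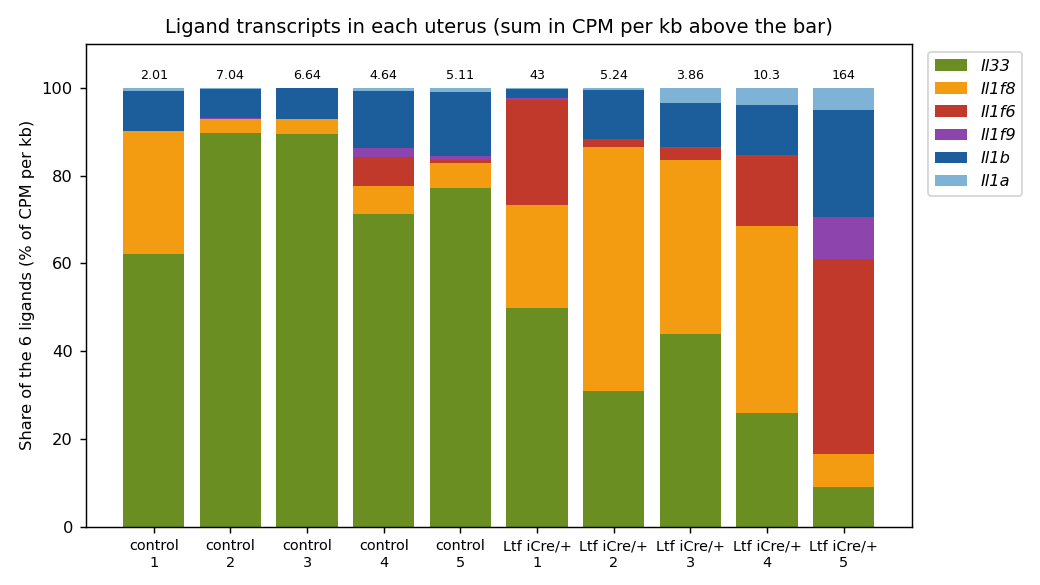
Share of the summed level of the 6 ligands, in percent of CPM per kb, in each uterus, with the sum in CPM per kb above each bar. Il33 fills 62.1% to 89.7% of each control bar and 9.13% to 49.9% of each Ltf iCre/+ bar.

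The antagonist and decoy genes were next. Il1rn (ENSMUSG00000026981, chr2:24336853-24351494, plus strand) stood at 0.196, 1.23, 0.768, 0.724 and 1.21 CPM in the controls and at 2.1, 1.12, 0.981, 2.85 and 49.9 CPM in the Ltf iCre/+ uteri. Replicates 1, 4 and 5 exceeded the controls and replicates 2 and 3 did not. Its log2 fold change of 3.79 (SE 1.15) had an adjusted p of 0.0600, which fell to 0.0436 without Ltf iCre/+ replicate 2 and to 0.0429 without replicate 3, and was 0.180 without replicate 5 (log2 fold change 1.10). The ratio of Il1rn to Il1a plus Il1b, on the per kb scale, was 0.179 to 0.46 in the controls and 0.187 to 0.39 in the Ltf iCre/+ uteri, and the latter lay wholly inside the control range.

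Il1r2 moved in opposite directions within the Ltf iCre/+ group (ENSMUSG00000026073, chr1:40074079-40125231, plus strand). Controls were at 1.65, 1.25, 1.41, 1.32 and 1.98 CPM, and the Ltf iCre/+ uteri at 0.862, 0.642, 0.556, 1.00 and 22.5 CPM. Replicates 1 to 4 were all below the lowest control and replicate 5 was 22.5 CPM, above the highest. With all 10 uteri the log2 fold change was 1.75 and did not pass (SE 0.99, adjusted p = 0.297), and without replicate 5 it was -0.99 and passed as lower (SE 0.25, adjusted p = 0.0347). The exact permutation test of 4 against 5 gave p = 0.00794, the smallest it allows. With replicate 5 out, 4 of the 10 genes were thus called higher and 1 lower, beside 4.93% and 4.22% of the genes tested in that fit.

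Il1r1, the signalling receptor of IL-1 (ENSMUSG00000026072, chr1:40225080-40317257, plus strand), was the most abundant of the 10 genes per kb in every control. It stood at 74.6, 81.2, 96.7, 76.8 and 76.7 CPM in the controls and at 120.5, 101, 109, 113 and 160.3 CPM in the Ltf iCre/+ uteri, with no overlap. The means were 81.2 ± 9.01 and 121 ± 23.1 CPM, a 1.49-fold difference (log2 fold change 0.57, SE 0.13, adjusted p = 0.0179), and 0.45 without replicate 5 (SE 0.09, adjusted p = 0.0153). The call held whichever uterus was left out, at an adjusted p of at most 0.0499, and the exact permutation test gave p = 0.00794. Il1f8 and Il1r1 were the 2 of 10 genes with no overlap between genotypes, where 5.53% of tested genes had none in the higher direction.

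The ratio of Il1r1 to its decoy Il1r2, per kb, was 11.6 to 20.6 in the controls. It was 41.9, 47.3, 58.98, 33.8 and 2.14 in the Ltf iCre/+ uteri. Replicates 1 to 4 were above all controls and replicate 5 was below all of them.

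Il1rl1, which encodes the IL-33 receptor ST2 (ENSMUSG00000026069, chr1:40429570-40465415, plus strand), stood at 2.34, 3.99, 2.65, 2.64 and 4.05 CPM in the controls and at 4.48, 5.22, 3.45, 3.99 and 9.56 CPM in the Ltf iCre/+ uteri. Replicates 1, 2 and 5 were above the controls and the other 2 within their range. The log2 fold change was 0.77 (SE 0.29, adjusted p = 0.120), and 0.45 without replicate 5 (adjusted p = 0.233), so it passed in neither fit. By the exact permutation test, unadjusted, p was 0.0476 with all 10 uteri and 0.0873 without replicate 5. On the per kb scale the receptors of the control uterus kept the order Il1r1 (11.7 to 15.2), Il1r2 (0.658 to 1.04) and Il1rl1 (0.339 to 0.587), with no overlap between neighbours.

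**Figure D3:**
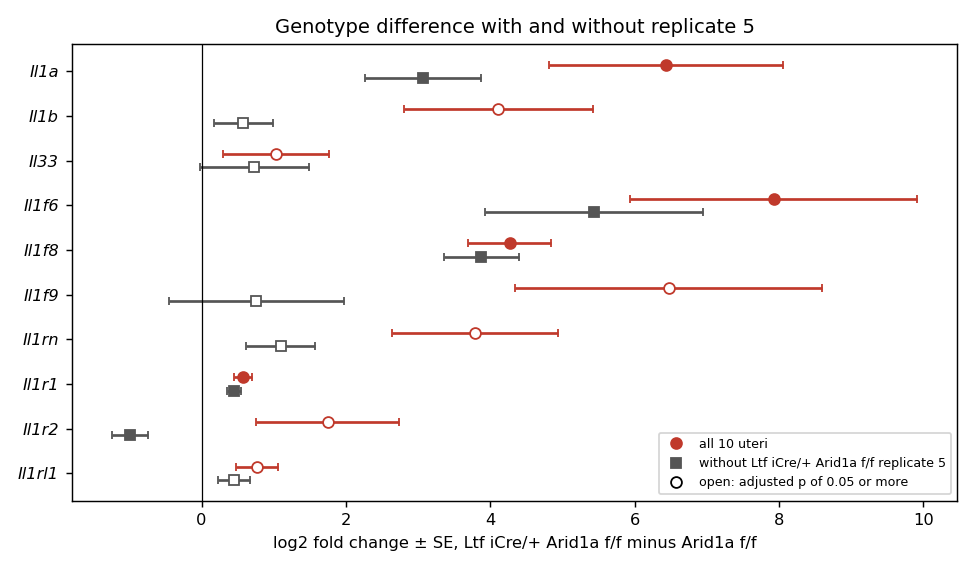
Log2 fold change with its SE for each gene, Ltf iCre/+ Arid1a f/f minus Arid1a f/f, over all 10 uteri (red circles) and without Ltf iCre/+ replicate 5 (grey squares). Filled symbols have an adjusted p under 0.05. Il1r2 changes sign, from 1.75 to -0.99, and Il1a, Il1f6, Il1f8 and Il1r1 are filled in both fits.

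Counted by uterus, Ltf iCre/+ replicates 1 to 5 stood above every control for 9, 3, 3, 6 and 10 of the 10 genes. Replicates 2 and 3 exceeded the controls for 3 genes each, and Il1f8 and Il1r1 were 2 of them in both. Over all tested genes replicate 5 stood above every control for 29%. That share was not computed for the other replicates, so whether their counts exceed the background was not tested. The Spearman rank correlation over the 10 uteri, which shares the genotype split and the library scaling, was 0.888 between Il1a and Il1f6, 0.855 between Il1a and Il1f8, 0.815 between Il33 and Il1f9 and 0.103 between Il33 and Il1f8. Il1r2 had rank correlations from -0.309 to 0.31 with the other 9 genes.

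The rest of the family was read from the same fit. Of 10 further ligands, antagonists, receptors and co-receptors, 9 were tested, 3 were higher and none lower. Il1f5 (Il36rn), the antagonist of the IL-36 receptor, stood at 0.042, 0.153, 0.0627, 0.0568 and 0.0574 CPM in the controls and at 0.486, 0.608, 0.458, 0.683 and 0.694 CPM in the Ltf iCre/+ uteri, without overlap (log2 fold change 2.94, SE 0.38, adjusted p = 0.00164, and 2.87 without replicate 5). Its Ltf iCre/+ levels were far more even than those of the ligands it opposes, at 0.458 to 0.694 CPM where Il1f6 spanned 0.0845 to 64.6. The ratio of Il1f5 to Il1f6, Il1f8 and Il1f9 together was, per kb, 0.0166 to 0.139 in the controls and 0.00526, 0.045, 0.0617, 0.0252 and 0.00153 in the Ltf iCre/+ uteri, so replicates 1 and 5 were below every control and the other 3 inside the range.

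Il18, a cytokine matured by the inflammasome like IL-1 beta, was higher without overlap, at 4.31 to 5.94 CPM in the controls and 7.67 to 10.4 CPM in the Ltf iCre/+ uteri (log2 fold change 0.92, SE 0.15, adjusted p = 0.00443, and 0.98 without replicate 5). Il18r1, its receptor, was higher in 4 of 5 Ltf iCre/+ uteri than in every control (1.43, SE 0.29, adjusted p = 0.0124, and 1.31 without replicate 5). The co-receptor Il18rap gave 1.27 (adjusted p = 0.0617) and the IL-18 antagonist Il18bp 0.77 (adjusted p = 0.148). The IL-36 receptor Il1rl2 gave 0.02 (adjusted p = 0.969), the shared co-receptor Il1rap -0.08 (adjusted p = 0.858), the inhibitory receptor Sigirr -0.04 (adjusted p = 0.869) and Il1rapl1 -0.32 (adjusted p = 0.775). Il1f10 (IL-38) had at most 1 read in any uterus and was not tested. The study picked Il1a, Il1f6 and Il18 from these sequencing data for follow-up, so their direction here is not independent evidence.

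The genes of the family lie in clusters. Il1f8, Il1f9, Il1f6, Il1f5 and Il1rn span 198 kb of chromosome 2, and 3 of these 5 were called higher. Of the 11 other tested genes with any part within 300 kb, 1 was called, Psd4, which was higher (log2 fold change 1.05, adjusted p = 0.00373). Over all tested genes 9.7% were called in either direction, so the counts of called neighbours here and below do not set them apart from other genes. The receptor cluster of chromosome 1 spans 478 kb from Il1r2 to Il18rap, and 2 of its 6 genes, Il1r1 and Il18r1, were called higher and none of 11 neighbours. Around Il1a and Il1b, 1 of the 2 cytokine genes was called, and of 21 neighbours Slc20a1 was higher (0.42, adjusted p = 0.0471) and the unnamed locus Gm14026 lower (-2.68, adjusted p = 0.0136).

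**Figure D4:**
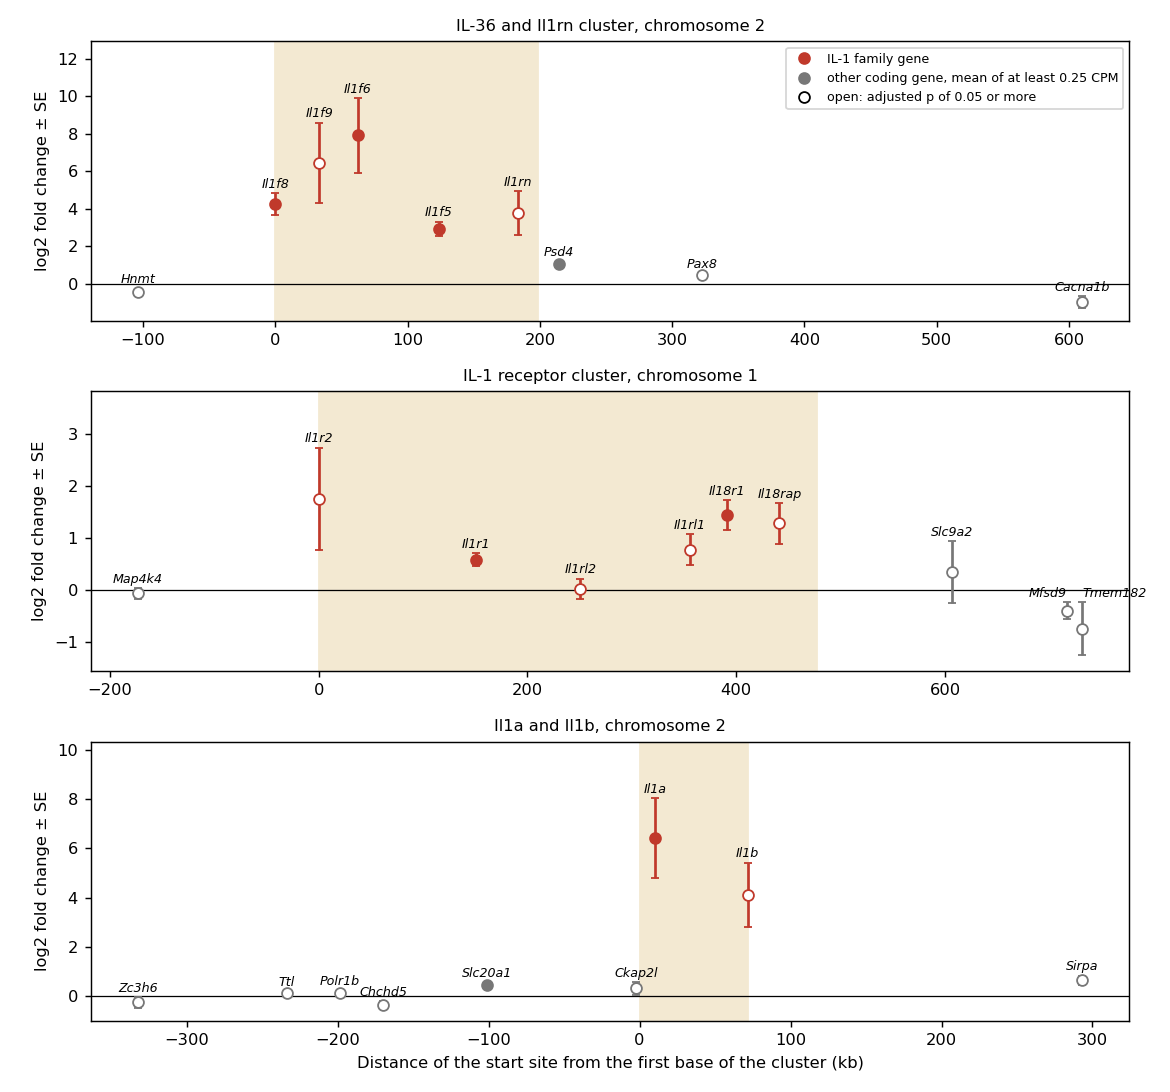
Log2 fold change with its SE against the distance of each start site from the first base of the cluster, for family genes (red) and other coding genes with a mean of at least 0.25 CPM (grey) with any part within 300 kb. Shading is the cluster, and filled points have an adjusted p under 0.05. Il1f8, Il1f6 and Il1f5 are filled in the first cluster, and Psd4 is the one filled neighbour there.

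Some of the 10 genes share bases with other annotated loci, and reads there can be split between them. The antisense locus Gm14023 over Il1a had 35 to 91 reads in the controls and 51 to 88 in the Ltf iCre/+ uteri, and Il1bos, antisense to Il1b, had 12 to 27 and 6 to 28 reads. Gm37347, on the strand of Il1r2, had at most 2 reads in any control and 67 in Ltf iCre/+ replicate 5, and Gm38070, on the strand of Il1r1, had 5 to 14 and 11 to 86.

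Across the pathway lists together, the 10 further family genes and the lists below, 75 of 78 genes were tested, 15 were higher and 2 lower (12 and 3 of 73 without replicate 5), with a median log2 fold change of 0.45. Of these 17 calls 8 held whichever uterus was left out, those of Il1f5, Il18, Il18r1, Ptgs2, Lcn2, Il17a, Ccl17 and Areg, and the other 9 were lost in at least 1 such fit. Of the genes for maturation and release of the cytokines, 1 of 15 tested was called: Ctss, a lysosomal protease that cleaves IL-36 gamma, at 47.6 to 84.7 CPM in the controls and 99.9 to 323 CPM in the Ltf iCre/+ uteri (1.30, SE 0.31, adjusted p = 0.0254, and 0.91 without replicate 5). Casp1, which matures IL-1 beta and IL-18, gave 0.45 (adjusted p = 0.0749). Of 20 receptor signalling genes, 1 was called, Ikbkg, the regulatory subunit of the IKK complex, which was lower (-0.32, SE 0.07, adjusted p = 0.0228). Myd88, which the study also picked for follow-up, did not pass (-0.82, SE 0.30, adjusted p = 0.112). Its Ltf iCre/+ levels, 49.7 to 160.2 CPM, all lay below the controls, at 160.5 to 230.9 CPM. In this list 2 genes lay wholly below the controls and 2 wholly above, where 5.16% and 5.53% of tested genes did. Without replicate 5, Irak2 was called higher (0.41, adjusted p = 0.0211) and Irak3, an inhibitor of the pathway, lower (-0.66, adjusted p = 0.0330). The list medians were 0.31 and 0.03.

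Genes that IL-1 or IL-36 is known to induce rose in part. Of 21 tested, 7 were higher and none lower (Il17a, Ptgs2, Lcn2, Tnf, Saa3, Csf3 and Cxcl5), and without replicate 5 it was 5 of 20, the exceptions being Csf3 and Cxcl5. The list median fell from 3.09 to 0.97 when that uterus was left out. The 14 genes not called leaned both ways. The log2 fold changes of Il6, Vcam1, Icam1, Ccl2 and Cxcl1 were -0.64, -0.08, -0.03, 0.45 and 2.95. Without replicate 5 they were, in the same order, -1.11, -0.47, -0.31, 0.06 and -0.90. The study picked Il17a, Tnf and Csf3 from these data as well. Il17a, the cytokine of Th17 and gamma delta T cells, had at most 3 reads in any control and 0.141, 0.237, 0.18, 0.508 and 1.36 CPM in the Ltf iCre/+ uteri, at least 11.2-fold above the floor of 3 counts per library (adjusted p = 0.0106).

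Ptgs2, the cyclooxygenase COX-2, stood at 1.73 to 5.2 CPM in the controls and at 3.25, 16.0, 14.7, 16.3 and 26.6 CPM in the Ltf iCre/+ uteri (2.22, SE 0.46, adjusted p = 0.0136, and 1.93 without replicate 5). Its low uterus was replicate 1, which was the second highest for Il1f8 and Il1f6. Lcn2, an antimicrobial protein of epithelia and neutrophils, stood at 0.838 to 1.71 CPM in the controls and at 635, 4.61, 2.35, 32.8 and 1659 CPM in the Ltf iCre/+ uteri (8.60, SE 1.79, adjusted p = 0.0139, and 7.13 without replicate 5), and its 2 highest uteri, replicates 5 and 1, were also the highest for Il1f6. Tnf was above every control in all 5 Ltf iCre/+ uteri, at 1.183 to 16.4 CPM beside 0.359 to 0.83 (3.09, adjusted p = 0.0216, and 1.86 without replicate 5). The neutrophil chemokine Cxcl2 gave 56.4 CPM in replicate 5 and at most 0.204 CPM elsewhere, and did not pass (adjusted p = 0.0554). Defb4 had no read in any uterus.

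Of 10 genes that respond to IL-33, 4 were higher, Ccl17, Arg1, Chil3 and Ccl22, and 1, Areg, was lower, with a list median of 1.87, or 1.47 with Il13 at the bound that its control counts set. Without replicate 5 it was 2 higher (Ccl17 and Arg1) and 1 lower of 9, and the median was 0.35. Ccl17, a chemokine for CCR4-bearing T cells, rose from 0.028 to 0.142 CPM in the controls to 0.235 to 3.78 CPM (4.20, SE 0.74, adjusted p = 0.0068, and 3.36 without replicate 5). Areg encodes amphiregulin, an EGF receptor ligand that in the uterus is induced by progesterone in the epithelium, and fell from 7.07 to 10.6 CPM to 0.047 to 0.608 CPM (-4.49, SE 0.54, adjusted p = 0.00131, and -4.28 without replicate 5). The receptor gene Il1rl1 and the ligand Il33 passed the test in neither direction.

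**Figure D5:**
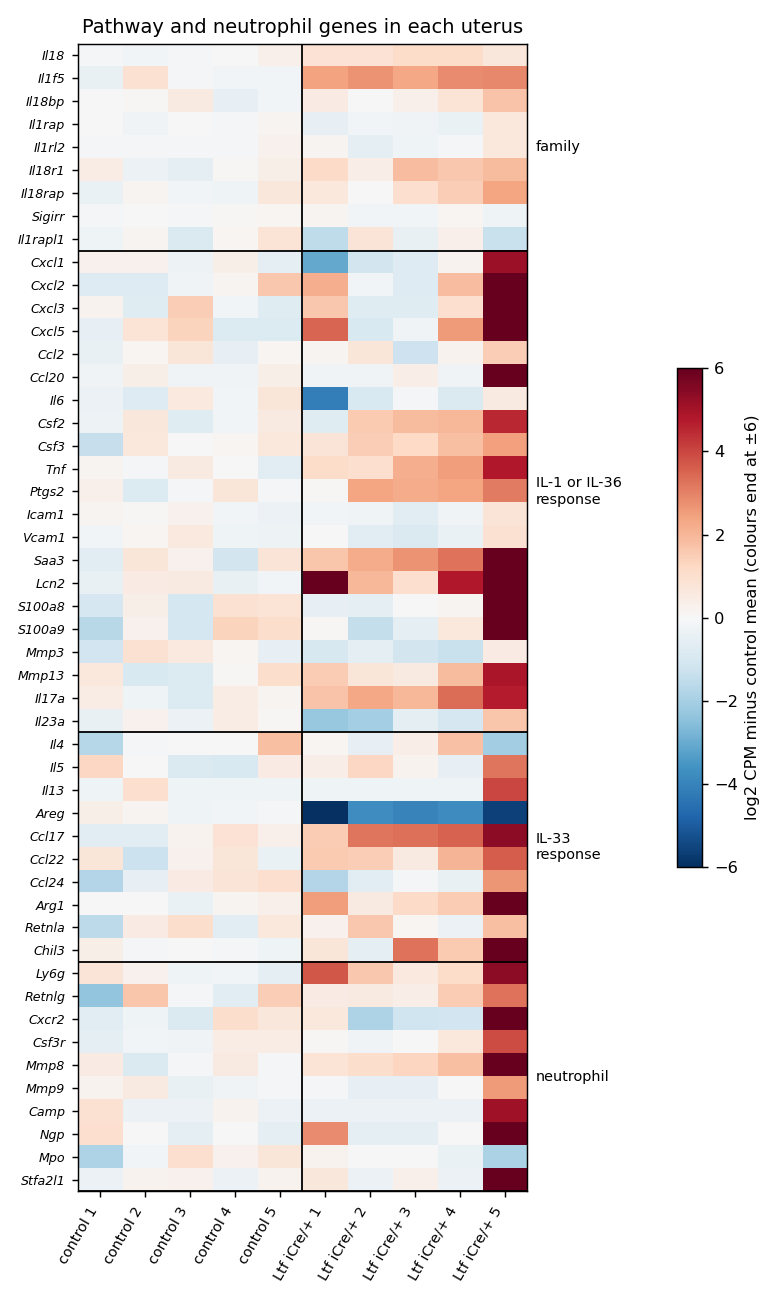
Log2 CPM minus the control mean of each gene (rows) in each uterus (columns), for the further family genes, the IL-1 or IL-36 and IL-33 response lists and neutrophil markers, with colours ending at 6 either way. Ltf iCre/+ replicate 5 is the darkest column in the response and neutrophil blocks, while Il1f5, Il18 and Areg differ in all 5 Ltf iCre/+ uteri.

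Markers of other cells moved beside these results. The summed level of 10 neutrophil markers was 17.5 to 33.9 CPM in the controls and 25.0, 19.7, 19.8, 32.1 and 273 CPM in the Ltf iCre/+ uteri, and 2 of the 10, Ly6g and Mmp8, were called higher. Without replicate 5 it was Ly6g alone of 8 tested, and the list median went from 4.03 (3.20 with 2 genes at their bound) to 0.15. Replicate 5, the uterus with most Il1b, Il1rn, Il1r2 and Il1f9, thus also had the highest sum of these markers. It was highest of the 10 uteri for 9 of the 10 markers. The other, Mpo, was lowest there, at -1.90 from its control mean on the log2 scale (lowest control -1.86). Per 1000 CPM of these markers, Il1r2 was 82.4 CPM in replicate 5, inside the control range of 37.0 to 94.4, and 28.0 to 34.5 in the other 4, below it. Il1b per 1000 CPM of the same markers was at most 54.0 in the controls and 64.0, 56.7, 37.1, 68.3 and 279 in the Ltf iCre/+ uteri. On that scale it exceeded every control in all but replicate 3. Il1rn on that scale was 11.2 to 41.6 in the controls and 49.5 to 183 in the Ltf iCre/+ uteri, without overlap. The part of neutrophils in these results was not tested.

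The macrophage and monocyte marker sum was 208 to 423 CPM in the controls and 352, 340.5, 408, 538 and 788 CPM in the Ltf iCre/+ uteri, with none of 10 markers called. Il1b per 1000 CPM of that sum was 1.68 to 3.4 in the controls and 4.54, 3.28, 1.8, 4.08 and 96.4 in the Ltf iCre/+ uteri. Replicates 1, 4 and 5 exceeded every control on that scale, as they did in CPM. Of 8 markers of group 2 lymphoid and regulatory T cells, which carry ST2, Il7r, Icos and Ctla4 were higher, and the sum was 43.0 to 57.7 CPM in the controls and 42.3 to 73.1 CPM in the Ltf iCre/+ uteri. Gata3, Rora, Il2ra, Foxp3 and Klrg1 were not called. Rora was below its control mean in replicates 1 to 4 and Gata3 in replicates 1, 2 and 5, while Foxp3 was above its mean in all 5. Of 8 mast cell markers, which also carry ST2, the sum was 452 to 573 CPM in the controls and 129.6, 597, 483, 577 and 311 CPM in the Ltf iCre/+ uteri, below every control in replicates 1 and 5. Most of it was Hdc, at 381 to 478 CPM in the controls and at 73.2 and 188 CPM in those replicates. The other markers did not share this fall, apart from Kit in replicate 1. In both replicates Cpa3, Mcpt4, Cma1, Tpsb2, Tpsab1 and Ms4a2 stood above their control means on the log2 scale. Tpsab1 was called higher, with at most 3 reads in any control, and not without replicate 5, where Kit was called lower (-0.72, adjusted p = 0.0173). The mast cell protease Cpa3 was 1.08 to 4.78 CPM in the controls and 12.3 CPM in replicate 5, the uterus with most Il1rl1.

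Simple epithelium markers, the compartment in which the Cre is driven, were higher for 6 of 8 genes, with sums of 784 to 1048 CPM in the controls and 2187, 1296, 1127, 1391 and 1577 CPM in the Ltf iCre/+ uteri, without overlap. Krt18 and Cldn3 were not called. Cldn3 stood at -1.01 and -1.42 from its control mean on the log2 scale in replicates 1 and 5, below the lowest control at -0.39. Il1f8 was higher also per 1000 CPM of the 8 markers, at 0.281 to 0.717 in the controls and 1.65 to 9.3 in the Ltf iCre/+ uteri. So was Il1f5, at 0.0439 to 0.155 and 0.222 to 0.491. Il1f6 on that scale was 0 to 0.257 in the controls and 4.15, 0.0652, 0.087, 1.05 and 41.0 in the Ltf iCre/+ uteri, again with replicates 2 and 3 inside the control range. Stratified squamous markers, of the epithelium best known for IL-36, stayed low in both groups, with sums of 3.54 to 11.6 and 2.11 to 7.34 CPM, Krt6a and Sprr1b at 0 in all uteri and Dsg3 lower. Endothelial markers, of another compartment that expresses Il1r1, were lower for 7 of 8 genes, with sums of 791 to 1113 CPM in the controls and 419 to 567 CPM in the Ltf iCre/+ uteri, so Il1r1 rose while they fell. Per 1000 CPM of the endothelial markers Il1r1 was 72.2 to 97.0 CPM in the controls and 179 to 382 CPM in the Ltf iCre/+ uteri. Among 8 stroma markers Dcn and Vim were lower, and no smooth muscle marker was called.

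By rank across the 10 uteri, the genes outside the family whose pattern was most like that of a member were searched among genes with a mean of at least 1 CPM, ties being broken by name. Most like Il1b were Cxcl2 (Spearman rho 0.985), Clec4a3 and Vamp8, and most like Il1f6 were Igsf5 (0.997), Psme2b and Nudt2. For Il1a they were Tmco6 (0.988), Aoah and Bcl2l15, with 6 genes at or above the value of Bcl2l15. For Il33 they were Nmral1, Slc45a4 and Ttc27, all at 0.964, and for Il1r2 Abca1 (0.952), Klhl24 and Pcdhga1. Of these 15 genes Bcl2l15 alone was called between the genotypes (1.87, adjusted p = 0.0408), and the order of 10 uteri shared by 2 genes is a description, drawn from a search over many genes.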

How the data were processed

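The comparison was of 5 Arid1a f/f with 5 Ltf iCre/+ Arid1a f/f uteri, grouped by the labels. The deposited table holds whole-number read counts of 45706 genes per library, made by the authors from 50 bp paired-end mRNA libraries with cutadapt 1.18, Trim Galore 0.6.4 and STAR 2.7.3a on GRCm38, with no normalization. Which annotation release and strand setting were used in counting is not given in the sources used here. Symbols, coordinates and exon lengths came from GENCODE M21 and promoters from RefSeq (GRCm38.p6). The 10 genes and all gene lists were chosen with earlier results of these data known.

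The 25146 genes that averaged 1 count or more per library were tested with edgeR 4.0.16 (TMM, quasi-likelihood, genotype only, two-sided, Benjamini-Hochberg at 0.05), a test checked on simulated counts. SEs are the log2 fold change over the root of F. Exact permutation tests used log2 CPM with a prior count of 2 over 252 arrangements and are unadjusted. Alternatives were RLE scaling, DESeq2 1.42.0 (the study's tool), robust fitting, other filters, a replicate block and each uterus left out. Named were all 10 genes, all further family genes, up to 4 called genes per direction of the other lists, and the 3 genes most like 5 of the members in rank. Exceptions chosen after their values were seen are Casp1, Cxcl2, Cpa3, Hdc, Defb4, Cdh1, the genes called only without replicate 5, called neighbours within 300 kb and the remaining called genes of the IL-1 or IL-36 list. Myd88, the uncalled group 2 lymphoid and regulatory T cell markers and the remaining mast cell markers were also named after their values were seen. The same holds for Mpo, Krt18, Cldn3, Il6, Vcam1, Icam1, Ccl2 and Cxcl1. No libraries were duplicates, since every pair of one genotype differed by a chi-square of at least 33.3 per gene. The labels give both groups the numbers 1 to 5, but the numbers did not pair the uteri.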

Additional observations from a re-analysis of the deposited data

Results flagged for a closer look

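Within groups of 5 uteri, 5 of the 42 groups of values examined held a uterus whose gap to its nearest neighbour passed Dixon's 95% limit, where chance gives about 5 percent of groups. Of these, 3 were Ltf iCre/+ Arid1a f/f replicate 5. On the log2 CPM scale Il1b stood there at 6.25, with the other 4 uteri of the genotype between -0.39 and 1.15. Il1rn stood at 5.64, with the others between 0.02 and 1.52. Il1r2 stood at 4.49, with the others between -0.77 and 0.05. Among the further family genes, Il1f5 stood at -2.45 in control replicate 2, with the other controls between -3.80 and -3.43. Il1rl2 stood at 5.04 in control replicate 5, with the other controls between 4.73 and 4.75.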

How the results depend on the processing

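Of 152 repeats of the 10 genes' edgeR differences, 150 kept their direction and 137 their side of the threshold, with 11 losing and 4 gaining a call. Both reversals were Il1r2, at -0.21 with the replicate block and, leaving out 1 uterus at a time, from -0.99 (without Ltf iCre/+ replicate 5) to 2.04. DESeq2 called 4103 genes in all. Robust fitting called 2 of the 10 genes (Il1a at 0.0502 and Il1f6 at 0.0529 were lost) and edgeR's filterByExpr also 2, since it kept 7 of the 10 and dropped Il1a, Il1f6 and Il1f9. DESeq2 gave no adjusted p for 5 of them, and called Il1f8, Il1f6 and Il1r1 higher. Leaving out 1 uterus gave 1204 to 2381 calls over all genes (fewest without control 2, 3 or 4), 2 (without control 1, 2, 3 or 5) to 6 (without Ltf iCre/+ replicate 3) among the 10, and 8 (without control 4, with 9 to 11 without control 1, 2, 3 or 5) to 22 among the pathway genes. In the permutation tests, the difference in mean log2 CPM ranged over these omissions from -0.15 to 0.78 for Il33, from -0.00361 to 2.44 for Il1f9 and from -0.98 to 0.33 for Il1r2, none of them past the threshold except Il1r2 without Ltf iCre/+ replicate 5. The causes were not tested.

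The replicate block called 1704 genes over all and the same 4 of the 10, and changed no call among them. Same-numbered uteri had deviations correlated at -0.05 to 0.13, with 2 of 5 uteri closest to their own number, so the pairing was not used. Depth limits Il1a, Il1f6 and Il1f9, whose control levels rest on 0 to 19 reads.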
